A study of Mus musculus with 7 samples.

Results

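The genes described here are the receptor Met and the proteins around it: the receptors Met and Mst1r, the ligand Hgf, the proteases Hgfac and St14, the protease inhibitors Spint1 and Spint2, and the adaptor Gab1. They were found by gene symbol in the table of normalized counts (reads on a gene divided by a size factor of the library, with no correction for gene length), where all 8 have a row among 19257 genes, and 6 of the 8 had the mean normalized count of at least 10 that was asked of a gene before it was tested. Met was chosen by its measured values in these same libraries, high in the 3xCR and low in the GPC6 tumor group, and the other 7 genes were added for their place in the pathway with those results known. The levels and group differences of the 8 genes are therefore given as a description, and calls on them by the tests over all genes are only counted, near the end, with nothing read from them.

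The study asked what the glypican GPC6 adds to glioma growth in a mouse model, and took bulk tissue from the brain at the disease endpoint under fluorescence guidance for RNA-Seq, 1 brain per library. Both tumor groups were started in embryos by in utero electroporation of a construct with Cas9 and guides that cut tumor suppressors such as Trp53 and Nf1, together with a piggyBac transposon that marked cells with GFP. The 3xCR group (3 tumors, replicates 2, 3 and 4) carried this alone, and the GPC6 group (4 tumors, replicates 1 to 4) also overexpressed GPC6 from the transposon. Mice were on CD-1 and C57BL/6 backgrounds and of both sexes, without a strain, sex or age being given for a library, a brain without guides was not analysed here, and each tumor grew from cells edited separately in its own animal.

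Hgf is secreted as an inactive chain by cells of mesenchymal origin, and proteases such as the HGF activator (Hgfac) and matriptase (St14) cut it into the form that binds Met. Spint1 and Spint2 are membrane-bound inhibitors of those proteases. Active Hgf makes Met phosphorylate itself, the adaptor Gab1 docks on the receptor, and signals pass on to the RAS-MAPK and PI3K routes, which drive growth, survival and migration. Mst1r, also called RON, is the closest relative of Met and binds macrophage stimulating protein. In glioblastoma MET is amplified, mutated or fused in a minority of tumors, with PTPRZ1 as a known fusion partner, and heparan sulfate, which glypicans carry, binds HGF.

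The stretches before both receptor genes are shown because Met and Mst1r are relatives with very different RNA levels in these tumors. They are RefSeq promoter sequences of GRCm38.p6 on the plus strand, written up to the first base of the gene in GENCODE, with GC boxes (GGGCGG or its complement CCGCCC) in capitals. The Met stretch is chr6:17463707-17463799 and the Mst1r stretch is chr9:107906639-107906872.
Met: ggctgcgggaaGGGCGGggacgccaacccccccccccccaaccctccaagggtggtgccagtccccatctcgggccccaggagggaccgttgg
Mst1r: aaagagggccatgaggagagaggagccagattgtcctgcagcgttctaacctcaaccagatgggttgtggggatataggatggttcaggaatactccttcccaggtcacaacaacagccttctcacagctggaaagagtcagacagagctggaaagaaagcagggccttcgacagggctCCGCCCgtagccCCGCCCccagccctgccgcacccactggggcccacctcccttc
The window of 250 bases before the RefSeq start of Met runs on into the first exon of the GENCODE model, and there it holds a match to the AP-1 motif (TGAGTCA or TGACTCA, which complement each other) in the stretch chr6:17463893-17463919 and a match to the E-box CACGTG in chr6:17463821-17463846, each match in capitals.
Met, AP-1: gttgcccggcTGAGTCAcgggccgggc
Met, E-box: gacgaacagaCACGTGctggggcggg
AP-1 is the factor of the Fos and Jun families at the end of RAS-MAPK signalling. Among 32817 RefSeq windows of the same length, 4.46% hold the AP-1 motif, 6.02% the E-box, 32.7% a GC box and 6.90% the ETS motif CCGGAAG or its complement. The full Met window held 3 GC boxes, of which 1 lies in the stretch written before the gene. The windows of Mst1r held 2 and 0. Those of Spint1, Spint2 and Gab1 held GC boxes too, and those of Hgf and Hgfac held 0. Of the 7 members with a promoter window in the table (10 windows), Met alone held an AP-1 or E-box match and Spint1 alone an ETS match, and these matches are letters in a window, not measured sites.

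Between 7197692 and 18879762 reads fell on genes in a library (median 10566182). A gene with 0 reads could still stand at up to 1.64 normalized counts in the deepest and 4.64 in the shallowest library, for counting error only. Nothing states more than 1 extraction per animal, so the spread between libraries is that between brains and their preparation. Gpc6 lay above every 3xCR library in all 4 GPC6 libraries, but the library labelled GPC6 replicate 2 had 263 normalized counts against 126 to 226 in 3xCR, and 675 to 5084 in the other three. Trp53 and Nf1, cut in both groups, had RNA in every library (231 to 789 and 352 to 815 normalized counts), which small edits need not remove. GPC6 replicate 1 stood apart in composition, with a summed level of 615 for 10 proliferation markers against 4867 to 13683 in the other libraries. Markers of neurons, astrocytes and oligodendrocytes, as the label of brain tissue asks, were above 0 in every library. None of 14 cell type marker scores and the depth passed a two-sided exact permutation test between the groups (15 values, p = 0.057 to 0.971, the smallest for microglia markers and equal to the smallest that 3 libraries against 4 allow, and Benjamini-Hochberg adjusted p = 0.571). Rn45s, the ribosomal RNA precursor, took 2.52% to 2.79% of reads in 3xCR and 0.914% to 1.39% in GPC6 libraries.

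Met RNA was abundant in 2 tumors of the 3xCR group and low in the other 5 tumors. Met, the receptor of Hgf (ENSMUSG00000009376.15, chromosome 6 of GRCm38, 17463800 to 17573980, plus strand), had 4246, 130 and 1479 normalized counts in 3xCR replicates 2, 3 and 4. The values of the GPC6 tumors, replicates 1 to 4, were 75.7, 68.2, 96.7 and 105. The 4 GPC6 libraries thus lay close together and below the 3xCR libraries, whereas within 3xCR replicate 3 stood near the GPC6 level and replicates 2 and 4 far above it. The reads behind these values were 7747, 140 and 1071 in 3xCR and 49, 69, 109 and 102 in GPC6, so counting error was small beside the range (exact Poisson 95% interval of 4152 to 4342 in 3xCR replicate 2 and of 1392 to 1571 in replicate 4). As bulk tissue was read, more Met-expressing cells and more Met RNA per cell cannot be told apart.

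**Figure D1:**
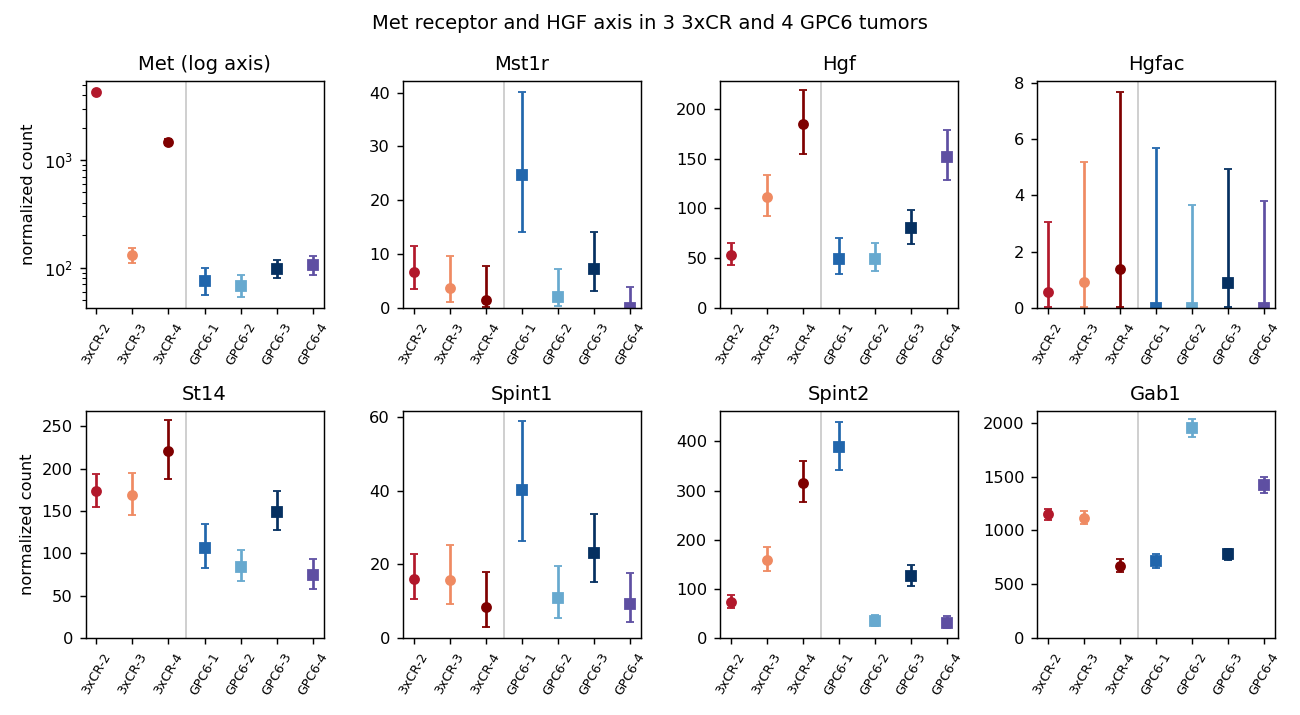
Normalized counts of the 8 genes in each library, with 3xCR tumors as circles left of the grey line and GPC6 tumors as squares right of it; bars are exact Poisson 95% intervals of the reads, for counting error only, and the Met axis is logarithmic. Met stood at 4246 and 1479 in 3xCR replicates 2 and 4 and between 68.2 and 130 in the other libraries, while the other 7 genes show no such pair of libraries.

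Within the 3xCR group, Met in replicate 2 was 32.6 times its level in replicate 3 (counting interval 27.6 to 38.8), rank 8 among the 14782 genes tested by this difference. In replicate 4 it was 11.4 times the level in replicate 3 (9.52 to 13.6), rank 81 of the genes tested. Replicates 2 and 4 differed from each other by 2.87 times (2.69 to 3.06), rank 1302 of the genes tested and above 91.2% of them, where 14.9% of genes were over 2-fold higher in replicate 2 than in replicate 4. With 1 library on each side there is no replicate check of these ratios. The SD of log2(normalized count + 1) was 2.57 for Met over the 3 libraries of 3xCR, rank 89 of 14782 and above 99.4% of genes, against a median of 0.35. Over the 4 GPC6 libraries the SD of Met was 0.29, rank 11642, where the median gene had 0.53.

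Between the groups, the mean of Met was 1952 ± 2098 normalized counts (SD, n = 3) in 3xCR and 86.4 ± 17.3 (SD, n = 4) in GPC6 tumors, a ratio of means of 22.6 and a log2 fold change of -3.45 (standard error 1.02) from 3xCR to GPC6 on the log2(normalized count + 1) scale. The SD of the 3xCR group was larger than its mean. The ratio rested on 3xCR replicate 2 most, as it was 9.32 without that library, 25.3 without replicate 4 and 33.1 without replicate 3. Without GPC6 replicate 1 or 2, which are doubted above, it was 21.7 or 21.1. The gap between the groups was narrow. 3xCR replicate 3 was 1.24 times GPC6 replicate 4 (counting interval 0.955 to 1.62), 1.35 times GPC6 replicate 3 (1.04 to 1.75), 1.72 times GPC6 replicate 1 (1.23 to 2.43) and 1.91 times GPC6 replicate 2 (1.42 to 2.59). The first of these intervals includes equal levels.

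In 0 of the 14 marker lists was the score of both tumors of high Met, 3xCR replicates 2 and 4, above the other 5 libraries. A list can miss so strict a rule whatever its part in the Met level, so nothing is read from this 0. The scores of these 2 tumors often lay on opposite sides of 0. The neuron score was -0.22 in 3xCR replicate 2 and -2.12 in replicate 4, the astrocyte score 0.75 and -1.53, the score of oligodendrocyte precursors 0.62 and -0.91, and the macrophage and monocyte score -1.02 and 1.76 (a score is the mean over a list of log2 values, each minus its mean over the 7 libraries). Microglia markers were higher in all 3xCR libraries (summed level 36355 to 65294 normalized counts, against 18518 to 33091 in GPC6), but among the 3xCR libraries they were lowest in replicate 2, where Met was highest. The part of cell composition in the Met difference was not tested.

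Of the 5 nearest protein-coding genes on each side of Met on chromosome 6, 9 passed the filter on low counts, and none of the 9 stood above 3xCR replicate 3 in both 3xCR tumors of high Met. Their levels were 0.297 to 1.19 times those of replicate 3 in replicate 2, where Met was at 32.6 times, and 0.427 to 5.60 times in replicate 4, where Met was at 11.4 times. Cftr, a chloride channel gene, did not pass, with 10.96, 0.930 and 9.67 normalized counts in 3xCR replicates 2, 3 and 4 (0.930 is 1 read) and 20.1, 2.96, 4.44 and 3.09 in GPC6 replicates 1 to 4. Capza2, a subunit of the actin capping protein and the nearest gene after the end of Met (62.3 kb), had 2621, 2777 and 2521 normalized counts in 3xCR replicates 2, 3 and 4, against 2084 to 2629 in GPC6. St7, 119 kb after the end, had 200, 239 and 254 in 3xCR and 216 to 246 in GPC6. These genes varied by 1.33 and 1.27 times over the 7 libraries, against 62.3 times for Met.

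On the other side, Cav1, which codes for the main protein of caveolae and lies 122 kb before Met, had 467, 1574 and 671 normalized counts in 3xCR replicates 2, 3 and 4, and was thus lowest in the 3xCR tumor with most Met. Cav2 had 412, 780 and 367. Tes, a focal adhesion protein gene 358 kb away, had 112, 163 and 912, so that its level was 5.60 times higher in 3xCR replicate 4 than in replicate 3 but not in replicate 2, and Tfec and Mdfic were also highest of the 3xCR libraries in replicate 4. Cttnbp2, a neuronal protein gene after the end of Met, was the 1 tested neighbour whose groups did not overlap, with 335, 282 and 126 in 3xCR and 697, 462, 394 and 385 in GPC6 replicates 1 to 4. Within 3xCR it was highest in replicate 2, as Met was. Ptprz1, the fusion partner of MET in human glioma and a gene of glial progenitors 5302 kb away on the same chromosome, had 9184, 8148 and 3780 normalized counts in 3xCR and 4530, 13443, 7235 and 10250 in GPC6 replicates 1 to 4. Its level was of the same order in tumors of high and low Met. Counts per gene carry no information on DNA copy number, on where in the gene the reads lay or on joined transcripts.

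**Figure D2:**
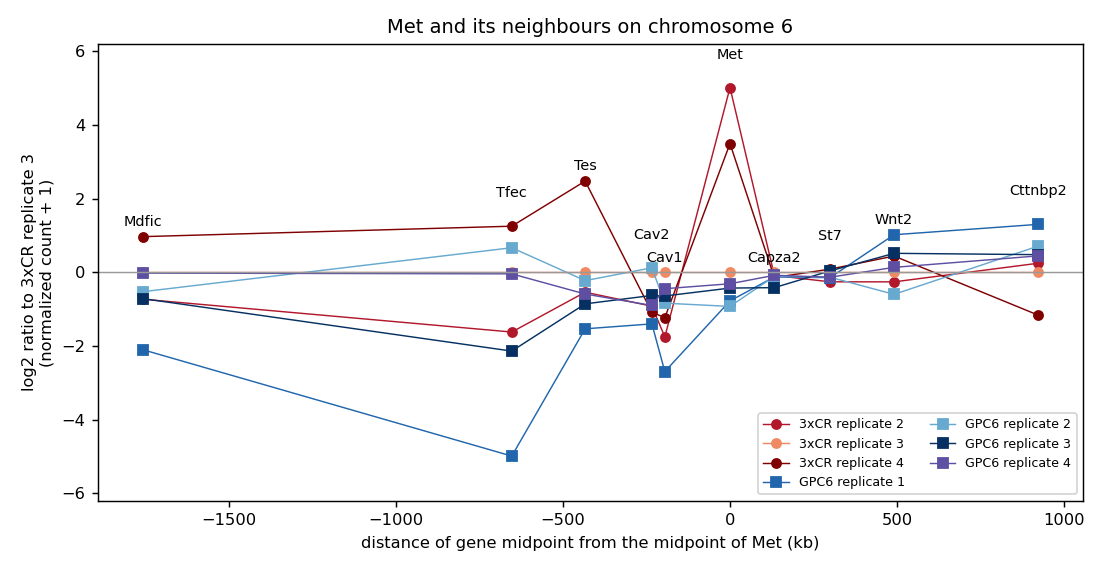
Log2 ratio of (normalized count + 1) to that in 3xCR replicate 3 for Met and its 9 neighbours with sufficient counts, placed by the distance of their midpoints from that of Met in kb, with 1 line per library (circles 3xCR, squares GPC6). The ratio of Met stands out in 3xCR replicates 2 and 4, and Capza2 and St7 next to it stay near 0 in all libraries.

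Among receptor tyrosine kinases, the class of growth factor receptors to which Met belongs, Met changed place from tumor to tumor. Per kb of exon it had 553, 17.0 and 193 normalized counts in 3xCR replicates 2, 3 and 4, rank 4, 28 and 7 of 53 receptors with a row and a length. In GPC6 replicates 1 to 4 it had 9.86, 8.88, 12.6 and 13.7 per kb, rank 44, 33, 38 and 32. By this length only Pdgfra, Ddr1 and Axl were above Met in 3xCR replicate 2, while the median receptor had 15.2 per kb there. With the longest transcript as the length, Met had rank 5 in that library. Of the 48 receptors that passed the filter, Met had the widest range within 3xCR, with a highest to lowest ratio of 32.4 on normalized count + 1, and Epha3 came next with 7.97. Within GPC6 the ratio of Met was 1.53.

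**Figure D3:**
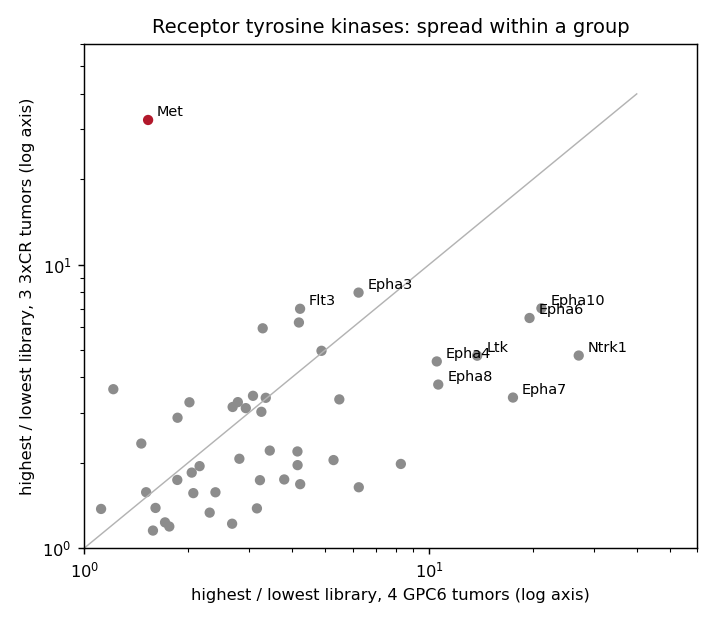
Ratio of the highest to the lowest library (normalized count + 1) for 48 receptor tyrosine kinases, within the 4 GPC6 tumors on the horizontal and within the 3 3xCR tumors on the vertical axis, both logarithmic, with the line of equality in grey. Met, in red, lies at 1.53 and 32.4, highest on the vertical axis and with many receptors to its right.

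Mst1r (chromosome 9, 107906873 to 107920383), the relative of Met, was near the limit of detection. It had 6.58, 3.72 and 1.38 normalized counts in 3xCR replicates 2, 3 and 4 (12, 4 and 1 reads) and 24.7, 1.98, 7.10 and 0 in GPC6 replicates 1 to 4 (16, 2, 8 and 0 reads). The groups overlapped, and the highest value came from GPC6 replicate 1. At 0 to 4.94 normalized counts per kb it was ranked between 47 and 52 of the 53 receptors, and Met had the higher level per kb of the pair in every library.

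The genes whose pattern over the 7 libraries was most like that of Met (Pearson r of log2(normalized count + 1), given with no p) were Rbpms2 (r = 0.982), Wash1 (0.978), Crat (0.969), Rab10os (0.966), Rpph1 (0.948), Hist1h2bh (0.935), Spsb2 (0.934), Bloc1s1 (0.922), Frk (0.913) and Arhgap28 (0.911). Some of them varied far less than Met, as Wash1 changed by 1.18 times and Crat, a mitochondrial carnitine acetyltransferase, by 1.30 times over the libraries. Arhgap28, a GTPase activating protein, came nearest in size, with 263, 29.8 and 63.5 normalized counts in 3xCR replicates 2, 3 and 4, against 7.73 to 27.7 in GPC6. Frk, a cytoplasmic tyrosine kinase related to Src, had 57.6, 10.2 and 78.7 in 3xCR and 9.27 to 20.6 in GPC6. Rpph1 is the RNA part of RNase P and carries no poly(A) tail, and it had 132, 50.2 and 104 in 3xCR and 30.9 to 56.6 in GPC6. No member of the axis was among the 10, and the likeness of Met to Hgf, Gab1, St14, Spint1 and Spint2 was r = 0.14, -0.24, 0.68, -0.30 and 0.15.

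Hgf, the ligand (chromosome 5, 16553495 to 16620152), did not follow its receptor. It had 53.2, 112 and 185 normalized counts in 3xCR replicates 2, 3 and 4, against 49.5, 49.4, 79.8 and 152 in GPC6 replicates 1 to 4. The tumor with most Met therefore had the least Hgf of its group, 0.476 times the level in 3xCR replicate 3 (counting interval 0.361 to 0.628), and the groups overlapped widely. The means were 117 ± 66.1 (SD, n = 3) and 82.7 ± 48.5 (SD, n = 4), a log2 fold change of -0.48 (standard error 0.56), which is within the spread of both groups. The difference was -0.060 with 3xCR replicate 4 left out and -0.95 with 3xCR replicate 2 left out. The genes most like Hgf were Anxa9 (r = 0.989), Sec22b (0.984) and Eif3k (0.982). The score of macrophage and monocyte markers was also highest in 3xCR replicate 4 (1.76) and GPC6 replicate 4 (1.13) and lowest in GPC6 replicate 1 (-2.49), but it was 0.87 in GPC6 replicate 2, where Hgf was as low as in GPC6 replicate 1. The summed level of these 10 markers was 3441 to 35440 normalized counts in 3xCR and 742 to 12636 in GPC6, Arg1 being at 0 in some libraries, and their part in the Hgf levels was not tested.

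Of the 2 proteases among the members, St14 alone was measured at a usable level. Hgfac (chromosome 5, 35041509 to 35048461), a serum protease made mainly in liver, had 1 read in each 3xCR library and in GPC6 replicate 3 and 0 in the other GPC6 libraries, so no level can be compared.

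St14, or matriptase (chromosome 9, 31089402 to 31131853), a protease of the cell surface, had 173, 168 and 221 normalized counts in 3xCR replicates 2, 3 and 4, against 107, 84.0, 149 and 74.1 in GPC6 replicates 1 to 4. The 3xCR libraries all lay above the GPC6 libraries, with a small gap between 168 and 149. The means were 188 ± 29.1 (SD, n = 3) and 103 ± 33.3 (SD, n = 4), a log2 fold change of -0.89 (standard error 0.32). Leaving out single libraries gave -1.08 to -0.75. The counting intervals of 3xCR replicate 3 and GPC6 replicate 3 overlapped, at a ratio of 1.13 (0.911 to 1.40). Within 3xCR, St14 did not share the size of the jump of Met. Replicate 2 was 1.03 times replicate 3 (0.854 to 1.24), where Met was at 32.6 times. Replicate 4, the highest library for St14, was 1.31 times replicate 3 (1.05 to 1.63), where Met was at 11.4 times. The 3 genes most like St14 were the histone genes Hist1h2bk (r = 0.986), Hist1h4h (0.984) and Hist1h2bn (0.977), whose RNA mostly lacks a poly(A) tail. Rn45s, also without a tail, separated the groups in the same direction with the shares given above, as did the microglia markers, and the part of either in the St14 difference was not tested.

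The inhibitors Spint1 and Spint2 differed more between tumors of a group than between the groups. Spint2 (chromosome 7, 29256323 to 29281912) had 73.4, 159 and 316 normalized counts in 3xCR replicates 2, 3 and 4, against 390, 33.6, 126 and 30.9 in GPC6 replicates 1 to 4. Its highest and lowest values, 12.6 times apart, both lay in the GPC6 group, and the log2 fold change was -0.86 (standard error 0.94) and ran from -1.59 without GPC6 replicate 1 to -0.34 without 3xCR replicate 4. The ratio of the 3xCR mean to the GPC6 mean was 1.26, and 0.802 without 3xCR replicate 4. Within 3xCR it was lowest where Met was highest, replicate 2 being at 0.462 times replicate 3 (counting interval 0.366 to 0.582). The score of choroid plexus markers, an epithelium of the ventricles, was 2.76 in GPC6 replicate 1, 2.12 and 1.07 in 3xCR replicates 3 and 4 and -0.70 to -2.35 in the other 4 libraries, so that the 3 libraries of highest Spint2 were those with a score above 0. The summed level of the 10 markers was 229 to 3912 in 3xCR and 73.0 to 12804 in GPC6, with Ttr the most abundant on average, and with Folr1, Otx2, Kcne2 and Slc4a5 at 0 in some libraries. The part of this tissue in the Spint2 level was not tested.

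Spint1 (chromosome 2, 119237362 to 119249527) was low, with 15.9, 15.8 and 8.29 normalized counts in 3xCR replicates 2, 3 and 4, against 40.2, 10.9, 23.1 and 9.26 in GPC6 replicates 1 to 4. The log2 fold change was 0.43 (standard error 0.65) and 0.050 without GPC6 replicate 1, which held the highest value. The neuron marker score was also highest in GPC6 replicates 1 and 3, at 2.68 and 1.73. It was next highest in GPC6 replicate 4 (0.21), where Spint1 was below its level in 3xCR replicates 2 and 3 (scores of -0.22 and -0.86). The part of neurons in the Spint1 level was not tested. The genes most like Spint1 were Pnma2 (r = 0.993), Gm973 (0.992) and Kcnn3 (0.991), of which Pnma2 and Kcnn3 are neuronal. For Spint2 they were Ap2s1 (0.989), Fam132a (0.983) and Prelp (0.981). Of 10 general markers of epithelial cells, in which these inhibitors are best known, 3 passed the filter on low counts and Esrp1 was at 0 in every library. Epcam, the most abundant of them, had 206, 62.3 and 182 normalized counts in 3xCR replicates 2, 3 and 4. In GPC6 replicates 1 to 4 it had 46.4, 298, 39.9 and 34.0. Within 3xCR it was thus higher in the tumors of high Met, but its highest value was in GPC6 replicate 2, where Met was lowest. The 10 markers summed to 132 to 320 in 3xCR and 84.3 to 323 in GPC6. The part of epithelial cells in the levels of Spint1 and Spint2 was not tested.

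Gab1, the adaptor (chromosome 8, 80764438 to 80880519), was the most abundant member apart from Met in 3xCR replicates 2 and 4. It had 1149, 1119 and 667 normalized counts in 3xCR replicates 2, 3 and 4, against 716, 1951, 777 and 1425 in GPC6 replicates 1 to 4. The groups overlapped, with means of 979 ± 270.1 (SD, n = 3) and 1217 ± 585 (SD, n = 4) and a log2 fold change of 0.23 (standard error 0.40), whose sign turned without GPC6 replicate 2 (-0.038) and without 3xCR replicate 4 (-0.024). In the 2 tumors of high Met, Gab1 was at 1149 and 667, the upper and the lower end of its range within 3xCR. Genes most like it were Tnrc6a (r = 0.977), Irs1 (0.976), an adaptor of the insulin receptors, and Vcan (0.974), a marker of oligodendrocyte precursors. The score of the precursor list, which holds Vcan, was highest in GPC6 replicate 2 (1.11) and lowest in GPC6 replicate 1 and 3xCR replicate 4 (-1.01 and -0.91), the libraries with the highest and the lowest values of Gab1, and its part in the Gab1 level was not tested.

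Set in order by mean level per kb of exon over the 7 libraries, Gab1 had 219 normalized counts per kb, Met 115, Spint2 35.4, St14 18.3, Hgf 13.5, Spint1 6.37, Mst1r 1.30 and Hgfac 0.157. With the longest transcript as the length, St14 and Hgf moved to 39.3 and 28.0 and the order stayed the same. The place of Met rests on 2 libraries, since in GPC6 tumors its mean of 11.2 per kb was close to the 11.5 of Hgf and the 13.5 of St14. In those tumors the levels of Met, Hgf and St14 per kb of exon overlapped. Per kb of longest transcript, Met at 10.01 to 15.4 still overlapped Hgf (14.2 to 43.9) but lay below St14 (20.9 to 42.0).

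Since the comparison of the groups chose Met, counts of members in it are given beside those of all genes and nothing is read from them. The groups did not overlap, with GPC6 lower, for 2 members (Met and St14) of the 6 tested, where this held for 3.52% of 14782 genes, and for 0 members with GPC6 higher, where it held for 2.8%. In either direction it held for 6.32% of genes. limma, a linear model with a variance shared across genes, called 0 members and 0 of all genes (0%) at a Benjamini-Hochberg adjusted p under 0.05, and 2 members (Met and St14) at an unadjusted p under 0.05, where 4.66% of genes passed. On reads recovered from the values, edgeR's quasi-likelihood test called 0 members and 0% of genes at an adjusted p under 0.05 and 2 members (Met and St14) against 6.7% at an unadjusted one. The Wald test of DESeq2, the tool of the study, called 1 member (Met) after adjustment, against 0.0209% of 19097 genes, and 2 (Met and St14) without it, against 9.7%. Run on the 14782 genes alone, DESeq2 called 1 member (Met) against 0.0879% after adjustment and 2 (Met and St14) against 12.5% without it. Between single 3xCR libraries, 1 member (Met) was over 2-fold higher in replicate 2 than in replicate 3, against 6.68% of genes, and 2 members (Hgf and Spint2) were over 2-fold lower, against 6.12%. In replicate 4 against replicate 3, Met was over 2-fold higher and no member lower, against 8.24% and 9.99% of genes. In replicate 2 against replicate 4, Met was over 2-fold higher, and Hgf and Spint2 over 2-fold lower, where 12.4% of genes were lower.

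The remaining genes of the pathway were read from 5 lists, 106 genes in all, of which 94 could be tested. None of the 94 passed limma at an adjusted p under 0.05 in either direction (smallest adjusted p = 0.730), and edgeR and DESeq2, the latter on the same 14782 genes, called 0 of them as well. At an unadjusted p under 0.05 limma had 4 (4.26%, 2 higher and 2 lower in GPC6), where all genes gave 4.66%. edgeR had 4, where 6.7% of all genes passed, and DESeq2 had 9, where 12.5% did. The groups did not overlap for 4 of the 94, where this held for 6.32% of all genes tested. The median log2 fold change over the 94 was -0.19, and over all genes tested it was -0.019.

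Upstream of the receptor, the list of ligands, proteases and inhibitors had 8 of 18 genes tested, since Mst1, the ligand of Mst1r, and blood and epithelial proteases such as Plg, F12, F2 and Tmprss2 were too low or had no row. All 8 had a lower mean log2 value in GPC6, with a median log2 fold change of -0.64, where all genes tested had -0.019. In limma 0 of them had an unadjusted p under 0.05. The score of the list overlapped between the groups. It was 0.10, 0.45 and 0.72 in 3xCR replicates 2, 3 and 4, against -1.01, -0.15, 0.26 and -0.38 in GPC6 replicates 1 to 4. Its lowest value was thus in GPC6 replicate 1, which stood apart in composition. Serpine2, the protease nexin, was the most abundant with 6052 and 4831 normalized counts on average in 3xCR and GPC6 (log2 fold change -0.41, standard error 0.41), and Serpinf2, an inhibitor of plasmin, had the lowest value of the list, -1.78 (standard error 1.08). Of 13 co-receptors and membrane partners, the tetraspanin Cd151 alone (7.69%) had an unadjusted p under 0.05 in limma, where 4.66% of all genes did. Its log2 fold change was -0.84 (standard error 0.34), and the median of the list was -0.46. Cd44, a hyaluronan receptor that can present Hgf to Met, stood at -1.35 (standard error 0.73), the integrin subunit Itgb1 was the most abundant, and Plxnb1 had the highest value, 0.41.

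Downstream, the 28 genes of signal relay had a median of -0.021. At an unadjusted p under 0.05 they had 0 in limma and 3 in DESeq2, where 12.5% of all genes passed. The groups did not overlap for 2 of them. Values ran from -0.82 for the adaptor Shc1 to 0.78 for the kinase Pak1, the small GTPase Rac1 being the most abundant. The score of this list lay between -0.11 and 0.19 in all 7 libraries. The 23 genes of Met turnover and dephosphorylation had a median of -0.082. At an unadjusted p under 0.05 they had 0 in limma and 1 in DESeq2, and the groups did not overlap for 1 of them. Timp3 was the most abundant, and values ran from -0.64 for Spry4 to 1.90 for Sh3gl2, an endophilin of synapses. Sh3gl2 and Pak1 were highest in GPC6 replicates 1 and 3 (2422 and 1355, 4065 and 2570 normalized counts). The neuron marker score was also highest there (2.68 and 1.73). In GPC6 replicate 4, with the next highest score (0.21), Sh3gl2 was at 307, below the 481 of 3xCR replicate 2 (-0.22). The part of neurons in these levels was not tested.

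Of 22 tested transcripts that RAS-MAPK and AP-1 signalling can induce, 3 (13.6%) had an unadjusted p under 0.05 in limma, where 4.66% of all genes did. Fosb and Egr1, immediate early genes, had log2 fold changes of 2.03 and 1.22 (standard errors 0.83 and 0.39), and Hmga2, a chromatin protein of growing tissue, had -2.45 (0.88), none of which held after adjustment. Of these Egr1 alone did not overlap between the groups, with 477 to 540 normalized counts in 3xCR and 570 to 1914 in GPC6. Its highest values were in GPC6 replicates 1 and 3 (1914 and 1465), where the neuron marker score was highest. It was at 1159 in GPC6 replicate 2, where that score was -1.41. The part of neurons in the Egr1 level was not tested. Ccnd1, cyclin D1, was the most abundant, with 9822 and 5967 normalized counts on average in 3xCR and GPC6 and a log2 fold change of -1.08 (standard error 0.66). The score of this list was -0.33, 0.14 and 0.84 in 3xCR replicates 2, 3 and 4, against -1.05, 0.43, 0.25 and -0.27 in GPC6 replicates 1 to 4. It was thus below the mean of the 7 libraries in the tumor with most Met. In 0 of the 5 lists were both tumors of high Met above all others, and nothing is read from this 0 either.

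**Figure D4:**
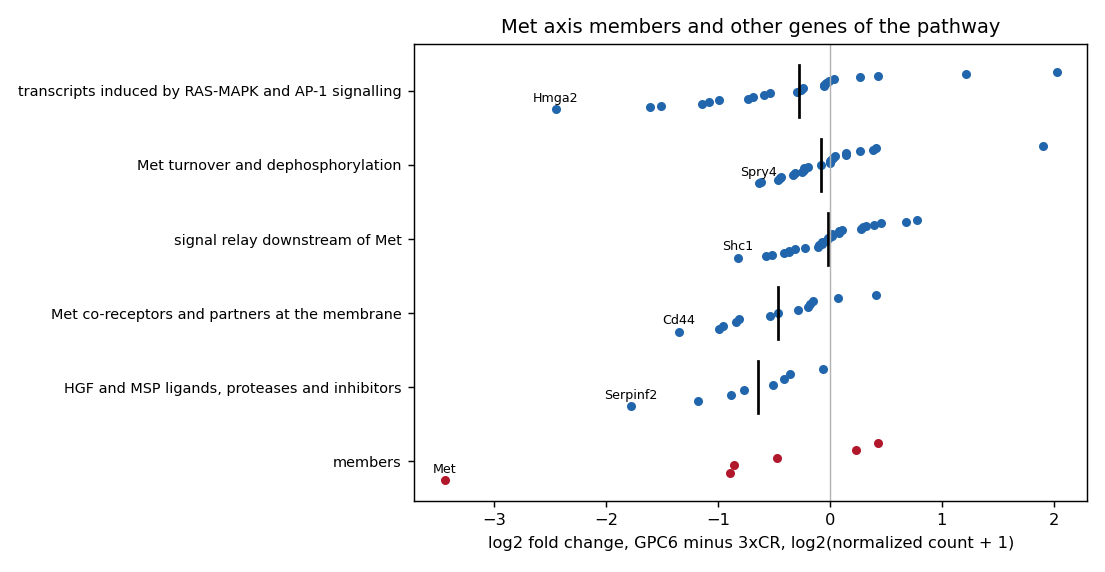
Log2 fold change from 3xCR to GPC6 tumors on log2(normalized count + 1) for the 6 members tested (red) and the tested genes of 5 pathway lists (blue), 1 point per gene, with black bars at list medians and the gene of lowest value in each named. The list medians lie between -0.64 and -0.021, and Met at -3.45 is the lowest value shown.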

How the data were processed

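RNA was sequenced from poly(A)-selected, stranded TruSeq libraries of 7 tumors. Per the labels and the methods of the study, reads were aligned by the authors with STAR 2.5.0a to the mm10 genome, counted them on genes with Rsamtools and GenomicFeatures and normalized them with DESeq2 1.20.0. The deposited values are a normalized signal, gene counts divided by 1 size factor per library, with no correction for gene length, and the strand setting and the rule for reads that match several genes are not given in the sources used here. Of 19282 entries, 25 had names turned into dates (0.254% to 0.361% of a library) and were left out. Whole reads were recovered from the steps of the values (100% within 0.01 of a whole number). Lengths and positions came from GENCODE M21 (GRCm38, the assembly of mm10), which matched 96.0% of genes by symbol, and promoters from RefSeq on GRCm38.p6.

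Groups and replicate numbers came from the sample titles. R 4.3.3 with limma 3.58.1 compared GPC6 with 3xCR, on log2(normalized count + 1) with a variance trend and two-sided, and took the 14782 genes whose mean reached 10, with Benjamini-Hochberg adjustment over all of them. Other settings tried were a pseudocount of 0.5 or 5, a mean of at least 50 or no filter, equal totals or upper quartiles, no variance trend, edgeR 4.0.16, DESeq2 1.42.0, each library left out, and a block for the replicate number. A DESeq2 fit on the genes of the limma test, without its own filters, was added after seeing the data. Reads were compared by exact Poisson and binomial 95% intervals (scipy 1.17.1), and levels per kb used the union of exons.

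The members, gene lists and marker lists were chosen with earlier results of these data known. Named genes were the members, the 5 protein-coding neighbours of Met on each side and Ptprz1, the 10 genes most correlated with Met and 3 with each other tested member, the most abundant and the extreme genes of each pathway list, the most abundant marker of each list, and the genes targeted. A gene that this rule names in the list of ligands, proteases and inhibitors is not reported here. Cd151 and Egr1, the marker genes and receptors named beside a score or rank, and Rn45s were chosen after their values were seen. So were the marker lists set beside Hgf, Spint1, Spint2, Gab1, Sh3gl2, Pak1 and Egr1. The marker lists covered neurons, microglia, macrophages and monocytes, endothelial, mural, fibroblast, choroid plexus, epithelial, ependymal and T cells, astrocytes, oligodendrocytes and their precursors, and proliferating cells.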

Additional observations from a re-analysis of the deposited data

Results flagged for a closer look

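Among 84 quantities looked at in the 4 GPC6 libraries (the genes named, the depth and the list scores, which share libraries and genes), 3 held a library whose gap to its nearest neighbour, on the log2 scale for genes, was past Dixon's 95% critical value, and chance gives about 4.2. All 3 lay in GPC6 replicate 3. Capza2 had 2084 normalized counts there, where its 3 companions had 2550 to 2629, and St7 had 246, against 216 to 218. Hgfac had 0.887, which is 1 read, against 0 in the other GPC6 libraries. None of the 8 members apart from Hgfac was singled out in this way, and the 3xCR group, which holds 3 libraries, was not examined.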

How the results depend on the processing

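Limits of size come first: 3 libraries against 4 cannot give an exact p below 0.057, and in the smallest library a count of 0 allows 4.64 normalized counts, which leaves Hgfac and Mst1r without a usable comparison. limma called 0 genes of all and 0 of the pathway lists, and both stayed at 0 with every library left out in turn and under the replicate block. DESeq2 called 4 of all genes, and 13 in the fit added after seeing the data, with 0 of the pathway lists in either; the cause was not tested. At an unadjusted p under 0.05 limma had 689 genes and 4 pathway genes. These counts became 1853 and 6 with DESeq2, 1854 and 9 in the added fit, 991 and 4 with edgeR and 688 and 3 under the replicate block. With single libraries left out, the first was lowest at 121 (3xCR replicate 4 omitted) and highest at 1399 (GPC6 replicate 2 omitted), and the second ran from 1 to 12. The deviations of same-numbered libraries from their group means had correlations of -0.19, 0.12 and 0.30 for numbers 2, 3 and 4. Those of differently numbered libraries ran from -0.46 to 0.50. These values cannot decide whether the number pairs samples, and the labels do not say. The groups do not overlap for Met and St14, which fixes their sign when a library is left out. The log2 fold change of Met ran from -4.86 without 3xCR replicate 3 to -2.36 without 3xCR replicate 2. Those of Hgf and Spint2 kept their sign under 18 of 18 and that of Spint1 under 17 of 17, while Gab1 kept it under 16 of 18. The split of genes at an unadjusted p under 0.05 was 405 higher and 284 lower in GPC6, 485 and 228 with equal totals, 327 and 388 with equal upper quartiles and 1293 and 560 with DESeq2.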
